A study of Arabidopsis thaliana with 11 samples.

Results

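The genes described here are MCCA, MCCB, IVD and LKR/SDH, which encode enzymes of branched-chain amino acid and lysine breakdown, and AT3G15450 and AT3G15630, which were grouped with them as sugar-starvation genes. They were taken as the probe sets annotated to these 6 names, 1 for each gene, out of 13286 genes that the annotation names on the array and 22746 probe sets that are not controls. The annotation names AT3G15450 and AT3G15630 only by locus, and LKR/SDH is its locus AT4G33150. They were selected on their signals in seedlings, above all in the fourth seedling array, so their differences from seedlings, and between seedlings, are a description without a test.

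The series holds 11 Affymetrix ATH1 arrays of Arabidopsis thaliana, all from Landsberg erecta plants. Stigma was measured on 3 arrays and ovary on 4, and the text describing the ovary arrays has both cut from pistils collected 1 day after stage 8 buds had been emasculated, with no pollination or other treatment named. The stigma arrays carry that same text, headed as ovary, and pistil as their source, so arrays were assigned to stigma by their titles. The 4 seedling arrays held whole seedlings, shoot and root together, after 10 days on Murashige and Skoog plates. Whether the arrays of a tissue stand for separate plants or cultures is not stated in the labels, so p-values measure the spread between samples that may be technical repeats.

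Leucine, isoleucine and valine are broken down in mitochondria. In the leucine branch, isovaleryl-CoA dehydrogenase (IVD) oxidises isovaleryl-CoA to 3-methylcrotonyl-CoA, which the biotin-containing methylcrotonyl-CoA carboxylase, built from the MCCA and MCCB subunits, then carboxylates. Lysine breakdown opens with the bifunctional enzyme LKR/SDH, which makes saccharopine and then splits it. Electrons from IVD enter respiration through the electron-transfer flavoprotein and its oxidoreductase ETFQO. In plants kept in the dark or short of sugar, transcripts of such enzymes are known to accumulate, through the kinase SnRK1 and bZIP transcription factors, and amino acids then serve as a fuel in place of sugar.

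Values are linear signal intensities that the authors had scaled to a common mean per array. Levels of different probe sets cannot be compared with each other, so each gene is compared only with itself. Differences are on the scale of log2(signal + 17.2), on which a change of a dim transcript looks smaller than it is. Testing required a signal above 144.2 on at least 3 arrays, which 15524 of 22746 probe sets had, all 6 genes among them. The arrays of each tissue resembled one another, with a mean rank correlation with their own tissue of 0.962 to 0.971 for stigma and ovary and 0.962 to 0.967 for seedlings 1 to 3. Seedling 4 stood apart with 0.945, and its median signal of 208 was the lowest of the 4 seedlings, against 225.6 to 229.9 in seedlings 1 to 3. Of 9 marker genes of stigma, ovule, root, green tissue and pollen, 8 had a probe set and 6 were tested. The stigma marker SLR1 averaged 13532 ± 978 in stigma (SD, n = 3), against 607 ± 821 in ovary and 54.7 ± 10.4 in seedling (SD, n = 4 each). The ovule marker INO averaged 579 ± 42.4 in ovary (SD, n = 4), against 195 ± 55.5 in stigma (SD, n = 3) and 164 ± 74.7 in seedling (SD, n = 4). Each was highest in the tissue that the labels name, although INO was not absent from the others. Ovary 1 stood apart on SLR1, with 1832.3, against 124.0 to 316.4 in ovary 2 to 4; without it, the stigma minus ovary difference of AT3G15450 given later was -1.27 in place of -1.30 and still called. Both pollen markers, AT59 and ANX2, failed the filter and were not tested. AT59 had 82.8 to 128.5 in stigma, against 7.1 to 56.4 in ovary and 5.2 to 9.1 in seedling. ANX2 had 40.7 to 153.7 in stigma, 9.8 to 40.8 in ovary and 19.9 to 38.7 in seedling. Seedlings 3 and 4 shared a chip lot and a scan period that held no other array. Pistil and seedling arrays shared no scan period, so no difference of stigma or ovary from seedling can be told apart from scan period.

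The 3 genes of leucine breakdown were low in both pistil parts and highest in seedling 4. MCCA had signals of 291.8, 315.5 and 283.6 in stigma 1 to 3 and 414.4, 268.0, 280.0 and 376.5 in ovary 1 to 4. In seedlings it had 5562.4 on array 4, against 1103.4, 620.0 and 668.1 on arrays 3, 2 and 1. Every stigma and ovary array thus lay below every seedling array, and the stigma and ovary ranges overlapped. In these bulk samples, fewer cells of a type and less RNA per cell cannot be told apart.

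MCCB, the other carboxylase subunit, had signals of 1432.9, 975.7 and 799.1 in stigma and 1181.8, 1187.8, 1118.5 and 944.1 in ovary. The seedling signals were 8287.7 on array 4, against 2973.2, 1159.8 and 1498.3 on arrays 3, 2 and 1. Both pistil parts reached into the range of seedlings 1 and 2 here, and only seedlings 3 and 4 lay clear above all 7 pistil arrays. IVD, the enzyme one step earlier, had signals of 288.3, 285.4 and 236.1 in stigma and 304.7, 285.0, 343.3 and 303.7 in ovary. Its seedling signals were 2710.9 on array 4, against 764.3, 470.4 and 387.0 on arrays 3, 2 and 1. As for MCCA, no pistil array reached the lowest seedling.

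LKR/SDH was the enzyme gene with the smallest span. Its signals were 484.7, 387.4 and 359.5 in stigma and 644.4, 483.6, 605.9 and 779.3 in ovary. On seedling 4 it had 1907.3, against 768.2, 537.3 and 555.5 on seedlings 3, 2 and 1. Stigma lay below every seedling, whereas the ovary arrays lay on both sides of seedlings 1 to 3.

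Both starvation genes, too, had their lowest mean in stigma. AT3G15450 had signals of 2432.9, 1596.6 and 2175.8 in stigma and 5385.8, 3860.3, 5327.6 and 5883.1 in ovary. It had 15910.1 on seedling 4, against 9278.0, 4479.1 and 4544.1 on seedlings 3, 2 and 1. Stigma was the lowest tissue with no overlap, and 3 of the 4 ovary arrays exceeded seedlings 1 and 2. AT3G15630 had signals of 915.5, 920.0 and 1077.0 in stigma and 1786.3, 859.2, 1994.9 and 1806.1 in ovary. It had 7488.4 on seedling 4, against 2715.9, 1758.0 and 1761.3 on seedlings 3, 2 and 1. Ovary 2 was the lowest of the 11 arrays for this gene, although the other 3 ovary arrays lay just above seedlings 1 and 2. These loci lie near each other on chromosome 3, with 21 protein-coding genes between them in the RefSeq annotation, and MCCB and LKR/SDH lie on chromosome 4 with 96 between them.

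**Figure D1:**
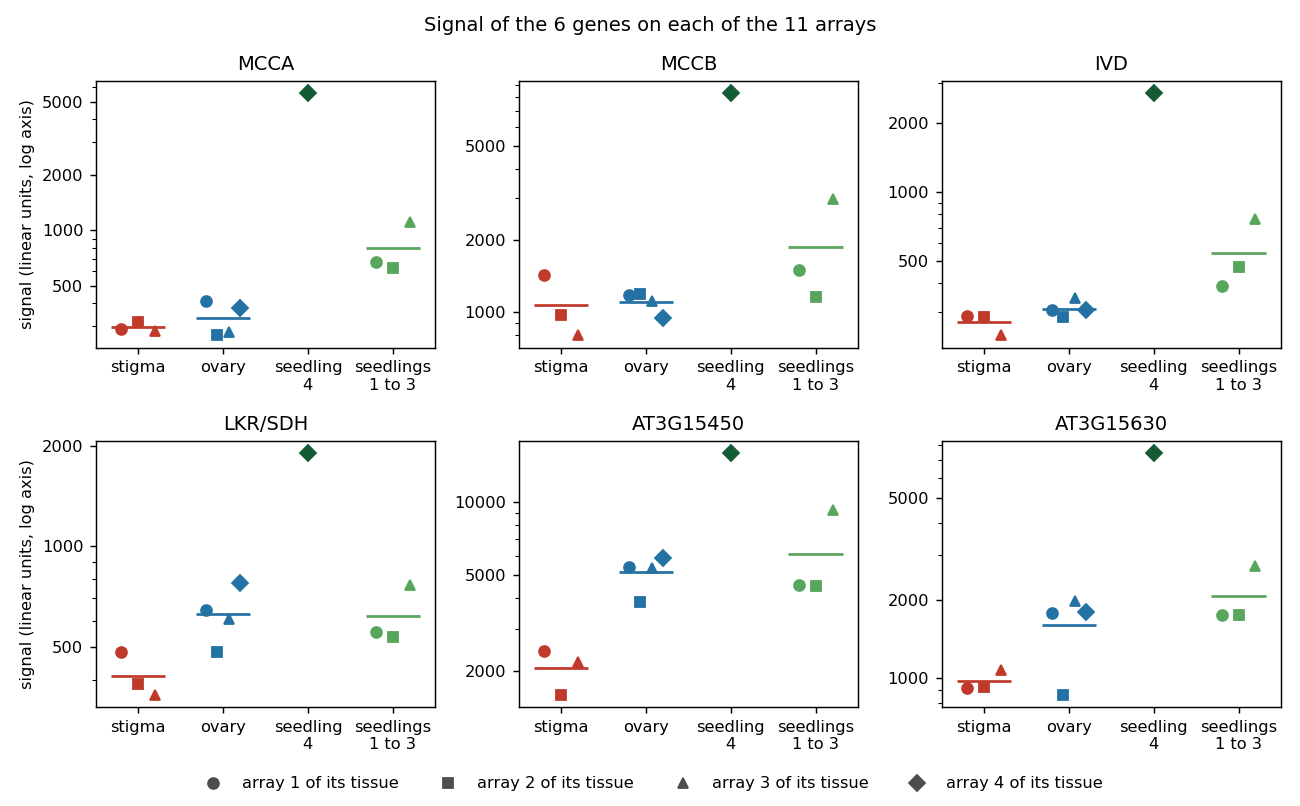
Signal of each of the 6 genes on each array (log axis), with stigma, ovary, seedling 4 and seedlings 1 to 3 from left to right; each point is 1 array, its shape gives the array's number within the tissue, and a bar is the mean of the points in its column. Seedling 4 is the highest point in every panel, and seedling 3 the highest of the other 3 seedlings.

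The seedling arrays fell into the same order for all 6 genes. Seedling 4 was the highest of all 11 arrays for 6 of 6, as it was for 15% of all tested probe sets, and seedling 3 came above both seedling 1 and seedling 2, an order that 19.9% of all tested probe sets had. Since the genes were chosen for their seedling values, nothing is read from the counts of members in this paragraph. Against the mean of seedlings 1 to 3, seedling 4 was 7.08-fold higher for MCCA, 5.09-fold for IVD and 4.75-fold for MCCB. The folds were 3.66 for AT3G15630, 3.06 for LKR/SDH and 2.77 for AT3G15450. Among all 15524 tested probe sets these differences ranked 21st for MCCA, 54th for IVD and 62nd for MCCB, and 139th, 226th and 293rd for AT3G15630, LKR/SDH and AT3G15450. A probe set was counted where seedling 4 was at least 2-fold from that mean and outside the range of the other 3 seedlings: this held for 6 of 6 genes, beside 4.87% of all tested probe sets that were higher and 5.31% that were lower. The gene nearest the 2-fold limit was AT3G15450.

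Seedling 3 differed from seedlings 1 and 2 in the same direction and by less. It exceeded their mean 2.24-fold for MCCB, 2.05-fold for AT3G15450, 1.76-fold for IVD, 1.70-fold for MCCA, 1.54-fold for AT3G15630 and 1.39-fold for LKR/SDH. Seedling 4 in turn exceeded seedling 3 by 4.98-fold for MCCA, 3.49-fold for IVD, 2.78-fold for MCCB, 2.75-fold for AT3G15630, 2.45-fold for LKR/SDH and 1.71-fold for AT3G15450. MCCA thus had most of its span between seedlings 3 and 4, and AT3G15450 most of its span between seedling 3 and the pair of seedlings 1 and 2. Seedlings 1 and 2 lay close together, with log2 differences of seedling 1 minus seedling 2 of -0.27 for IVD to 0.36 for MCCB.

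Other properties of the arrays also differed between the seedlings, though not all in this order. The 3'/5' log2 ratio of the actin control probe sets, which rises as RNA is degraded, was 2.49 in seedling 4, 2.40 in seedling 3, 1.46 in seedling 2 and 1.63 in seedling 1, and for GAPDH it was 0.42, 0.55, 0.25 and 0.32. In stigma the actin ratio ranged from 2.41 to 4.14, which overlaps seedlings 3 and 4, and the GAPDH ratio from 1.09 to 2.27. In ovary they ranged from 1.70 to 3.03 and from 0.70 to 1.11. The tissue markers differed less: the root marker PYK10 had 12294.3 in seedling 4, against 13319.7 to 16435.6 in seedlings 1 to 3, and the photosynthesis gene PRK had 12425.8, against 14445.9 to 16852.3. SBPASE, another photosynthesis gene, had 8635.9 in seedling 4, against 11082.8 to 14573.8 in seedlings 1 to 3, and the root hair gene EXPA7 had 163.4, against 140.8 to 224.1. The part of RNA quality and tissue composition in the differences between seedlings was not tested, and the difference of seedlings 3 and 4 from seedlings 1 and 2 cannot be told apart from chip lot and scan period.

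**Figure D2:**
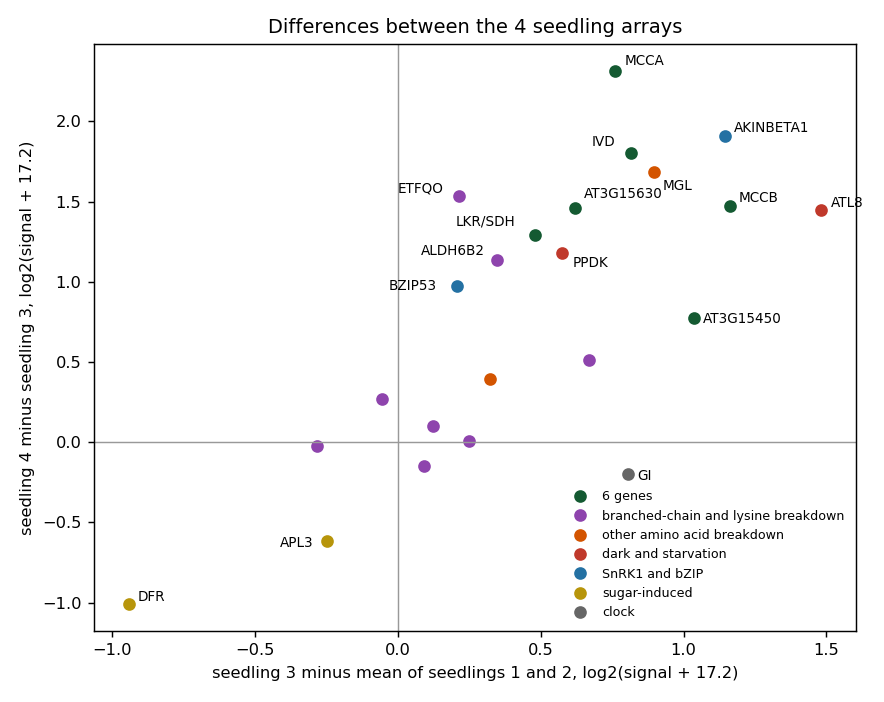
Each point is 1 gene: the horizontal axis gives seedling 3 minus the mean of seedlings 1 and 2, the vertical axis seedling 4 minus seedling 3, both as differences of log2(signal + 17.2), and colours give the gene lists. All 6 genes lie in the upper right part, MCCA highest with 2.32 on the vertical axis and 0.76 on the horizontal, and both sugar-induced genes lie in the lower left part.

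How far stigma lay below seedling depended on which seedling array it was set against. The median log2 difference over the 6 genes, stigma minus seedling, was -2.97 against seedling 4, -1.49 against seedling 3, -0.81 against seedling 2 and -0.69 against seedling 1, while the median over all tested probe sets stayed between 0.01 and 0.09. The stigma mean was lower for 6 of 6 genes against each of the 4 seedlings, beside 46.0% to 49.3% of all tested probe sets. It was at least 2-fold lower for 6 genes against seedling 4 and 5 against seedling 3, but for 2 against seedling 2 and 2 against seedling 1. Those 2 were MCCA and AT3G15450 on both arrays. Arrays of stigma and seedling did not overlap for 5 of 6 genes, all but MCCB, beside 51.4% of all tested probe sets. Between 15.9% and 16.1% of all tested probe sets were at least 2-fold lower in stigma against a given seedling.

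Ovary was below seedling 4 and seedling 3 for all 6 genes and near seedlings 1 and 2 for most. The median log2 difference over the 6 genes, ovary minus seedling, was -2.58 against seedling 4, -1.07 against seedling 3, -0.13 against seedling 2 and -0.25 against seedling 1, while the median over all tested probe sets was 0.09 to 0.15. At least 2-fold lower in ovary were 6 genes against seedling 4, beside 13.9% of all tested probe sets, and 3 genes against seedling 3, beside 13.1%. No gene was 2-fold lower in ovary than in seedling 1 or seedling 2, beside 12.4% of all tested probe sets against either, and the means of LKR/SDH and AT3G15450 were higher there, by at most 0.20 on the log2 scale. MCCA kept the largest difference, with log2 differences of -0.88 against seedling 2 and -0.98 against seedling 1. Arrays of ovary and seedling did not overlap for 2 of 6 genes, MCCA and IVD, beside 47.6% of all tested probe sets.

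**Figure D3:**
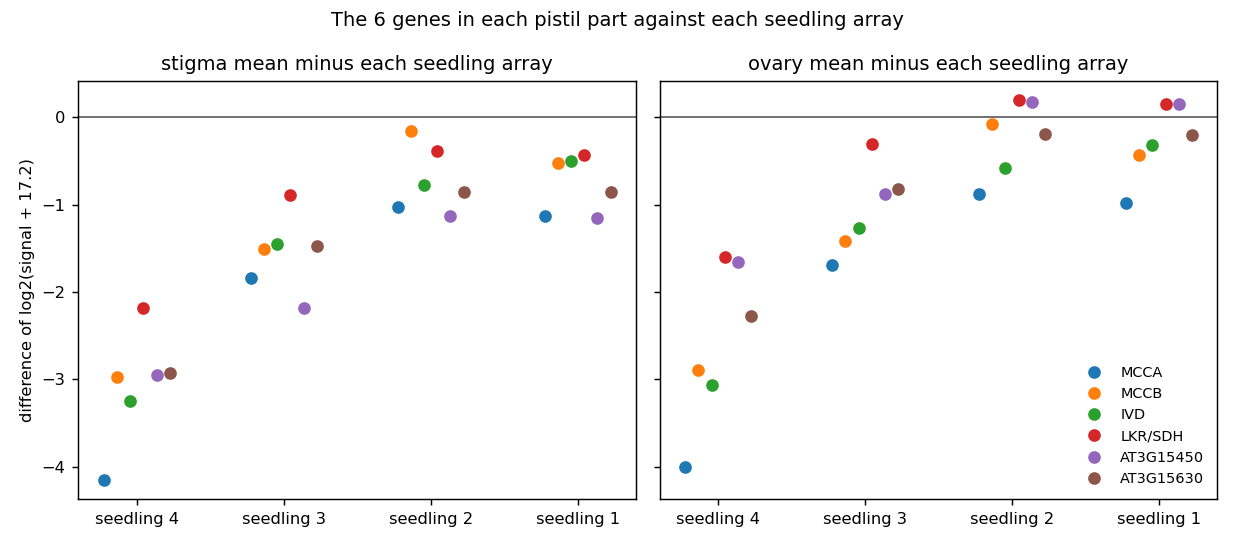
Mean of the 3 stigma arrays (left) and of the 4 ovary arrays (right) minus each seedling array, for the 6 genes, as differences of log2(signal + 17.2); points below 0 are genes lower in the pistil part. All points lie below 0 against seedlings 4 and 3, and in ovary the medians against seedlings 2 and 1 are -0.13 and -0.25.

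With the 4 seedlings averaged, the fitted log2 difference of stigma minus seedling was -2.03 ± 0.55 for MCCA, -1.29 ± 0.49 for MCCB and -1.49 ± 0.47 for IVD (± SE, 3 and 4 arrays). It was -0.97 ± 0.35 for LKR/SDH, -1.85 ± 0.36 for AT3G15450 and -1.53 ± 0.43 for AT3G15630. A call needed an adjusted p under 0.05 and a 2-fold difference, and 5 of 6 genes passed it, all but LKR/SDH, beside 15.1% of all tested probe sets lower and 11% higher in stigma. Since the rule used these values, nothing is read from that count. Without seedling 4 the differences were -1.33 for MCCA, -0.73 for MCCB, -0.91 for IVD, -0.57 for LKR/SDH, -1.49 for AT3G15450 and -1.06 for AT3G15630. Without seedlings 3 and 4 they were -1.07, -0.34, -0.63, -0.41, -1.14 and -0.85 in the same order of genes. The direction was the same for all 6 genes in both, and MCCB kept the smallest share of its difference. With RNA quality, the mean of the actin and GAPDH log2 ratios, as a covariate, MCCB had a difference of -2.36. The other 5 genes had differences of -2.52 to -1.35. The GAPDH ratio did not overlap between stigma (1.09 to 2.27) and seedling (0.25 to 0.55), so these adjusted differences rest on extrapolation.

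The fitted log2 difference of ovary minus seedling was -1.89 ± 0.51 for MCCA, -1.20 ± 0.45 for MCCB and -1.31 ± 0.44 for IVD (± SE, 4 arrays each). It was -0.39 ± 0.32 for LKR/SDH, -0.55 ± 0.33 for AT3G15450 and -0.87 ± 0.39 for AT3G15630. The 3 leucine genes passed the call rule, beside 11.7% of all tested probe sets lower and 11.1% higher in ovary. As for stigma, nothing is read from that count, since the genes were chosen on these seedling values. Without seedling 4 the difference was -1.19 for MCCA, -0.64 for MCCB, -0.72 for IVD, 0.02 for LKR/SDH, -0.18 for AT3G15450 and -0.40 for AT3G15630. Without seedlings 3 and 4 it was -0.93, -0.25, -0.45, 0.18, 0.16 and -0.20, so that LKR/SDH and AT3G15450 were then no lower in ovary. Chip lots 1 and 2 each held arrays of all 3 tissues, with 1 seedling. Pistil and seedling arrays of a lot still differed in scan period. Within lot 1 the stigma minus seedling difference ranged from -1.15 to -0.06 over the 6 genes and within lot 2 from -1.26 to -0.39. Within lot 1 the ovary minus seedling difference ranged from -0.97 to 0.01 and within lot 2 from -0.90 to 0.35.

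Stigma and ovary could be compared with a test, because that comparison uses no seedling level, although the spread of the fit includes the seedlings. AT3G15450 was lower in stigma than in ovary by a log2 difference of -1.30 ± 0.36 (SE, 95% interval -2.08 to -0.52, limma adjusted p = 0.0131), 2.47-fold, with all 3 stigma arrays below all 4 ovary arrays. It was the only 1 of the 6 genes called, beside 9.51% of all tested probe sets lower and 6.27% higher in stigma, and 45.2% of tested probe sets had stigma and ovary arrays that did not overlap. The call was lost without stigma replicate 2, where the difference was -1.13, and within scan period A, which held 1 stigma and 2 ovary arrays and gave -0.90. Within scan period B, with 2 arrays of each tissue, it was -1.58, and the difference between the periods had an adjusted p of 0.461 in limma.

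The other 5 genes did not pass the test between stigma and ovary. LKR/SDH differed by -0.59 (95% interval -1.33 to 0.16, limma adjusted p = 0.214) and AT3G15630 by -0.66 (-1.57 to 0.26, adjusted p = 0.258). Without seedling 4, which narrowed the spread of the fit, the same log2 differences had limma adjusted p of 0.0191 for LKR/SDH and 0.0477 for AT3G15630, still under 2-fold. The leucine genes had log2 differences of -0.14 for MCCA (-1.34 to 1.05), -0.09 for MCCB (-1.14 to 0.97) and -0.19 for IVD (-1.20 to 0.83), with limma adjusted p of 0.868, 0.911 and 0.794. These intervals reach past 2-fold in at least 1 direction, but their width comes from the seedlings that share the spread of the fit. With only the 7 pistil arrays the intervals were -0.55 to 0.27 for MCCA, -0.48 to 0.31 for MCCB and -0.54 to 0.17 for IVD, all within 2-fold, with limma adjusted p of 0.582, 0.735 and 0.390. With RNA quality as a covariate the differences were -0.50 for MCCA, -0.87 for MCCB and -0.62 for IVD, and none of the 3 passed the test.

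Other genes of these pathways were taken from 7 lists with 87 genes, of which 20 had a probe set that names only that gene and 17 were tested. The lists on branched-chain and lysine breakdown, on other amino acids, on dark and starvation responses and on SnRK1 and bZIP regulators together held 64 genes, of which 14 were tested. In seedling 4, 7 of these 14 were counted as higher than in seedlings 1 to 3 and none as lower, beside 4.87% and 5.31% of all tested probe sets, and their median log2 difference was 1.04, against -0.09 over all tested probe sets. The order of seedling 4 above seedling 3 above seedlings 1 and 2 held for 11 of 14, against 19.9% of all. The lists were chosen with earlier results of these data known, so these counts and the median are a description and nothing is read from them. The remaining lists gave 2 tested genes induced by sugar and 1 clock gene, while the senescence list had none tested.

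In the branched-chain and lysine list, 2 of 8 tested genes were counted as higher in seedling 4. ETFQO, the oxidoreductase that takes up electrons from IVD, had 1648.2 in seedling 4, against 557.5, 483.0 and 473.5 in seedlings 3, 2 and 1, 3.20-fold over their mean. It also was higher in stigma than in ovary, with 817 ± 40.5 in stigma (SD, n = 3) and 349 ± 77.9 in ovary (SD, n = 4), a log2 difference of 1.21 ± 0.35 (SE, limma adjusted p = 0.0158). This call was lost without stigma replicate 1 (1.18), with RNA quality as a covariate (1.08) and within scan period B (0.92), each a log2 difference in the same direction. The direction is the opposite order of these tissues to AT3G15450. ALDH6B2, the methylmalonate-semialdehyde dehydrogenase of valine breakdown, had 6230.2 in seedling 4, against 2832.4, 2250.2 and 2198.5 in seedlings 3, 2 and 1. Its seedling 4 level was 2.57-fold above the mean of the other 3. The list was not uniform: AT5G09300 had 134.6 in seedling 4, against 138.9 to 151.2 in seedlings 1 to 3. It was higher in both pistil parts than in seedlings, by log2 differences of 1.14 ± 0.16 for stigma and 1.65 ± 0.15 for ovary (SE). These are a description without a test, because among seedlings it exceeded the filter signal of 144.2 only in seedling 3. ETFA and ETFB, the flavoprotein subunits that feed ETFQO, lay 1.13-fold and 1.18-fold above the mean of seedlings 1 to 3 and were not counted. AT2G26800 averaged 1410 ± 129 in stigma (SD, n = 3), against 864 ± 9.66 in ovary and 1012 ± 110 in seedling (SD, n = 4 each). It was not called in any tissue comparison. In seedling 4 it lay 1.13-fold above the mean of seedlings 1 to 3 and was not counted.

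In the list on other amino acids, 1 of 2 tested genes was counted as higher in seedling 4. MGL, the methionine gamma-lyase, had 1884.8 in seedling 4, against 574.3, 298.6 and 303.1 in seedlings 3, 2 and 1, 4.86-fold over their mean. Unlike the 6 genes it was highest in stigma, at 3123 ± 428 (SD, n = 3), against 635 ± 98.0 in ovary and 765 ± 757 in seedling (SD, n = 4 each). The log2 difference was 2.27 ± 0.47 for stigma minus ovary (SE, limma adjusted p = 0.00208) and 2.43 ± 0.47 for stigma minus seedling (adjusted p = 0.000739). DELTA-OAT, ornithine aminotransferase, was not called in any tissue comparison and lay 1.52-fold above the mean in seedling 4.

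Both tested genes of the dark and starvation list were counted as higher in seedling 4. ATL8, a RING-type ubiquitin ligase gene, had 1155.3 in seedling 4, against 413.1, 158.7 and 117.6 in seedlings 3, 2 and 1, which was 5.41-fold over their mean. It was not called between tissues, and the seedlings spread over the range of both pistil parts. PPDK, pyruvate orthophosphate dikinase, had 2786.1 in seedling 4, against 1219.7, 787.8 and 840.7 in seedlings 3, 2 and 1. PPDK was higher in stigma than in ovary, with 1563 ± 211 in stigma (SD, n = 3) and 396 ± 127 in ovary (SD, n = 4), a log2 difference of 1.98 ± 0.36 (SE, limma adjusted p = 0.00092). It was lower in ovary than in seedling by a log2 difference of -1.64 ± 0.34 (SE, adjusted p = 0.00118).

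Both tested regulators were counted as higher in seedling 4. AKINBETA1, a beta subunit of the starvation-activated kinase SnRK1, had 6740.1 in seedling 4, against 1781.9, 801.1 and 790.9 in seedlings 3, 2 and 1, or 6.38-fold over their mean. In stigma it averaged 431 ± 27.2 (SD, n = 3) and in ovary 675 ± 212 (SD, n = 4). It was lower in both than in seedling, by log2 differences of -1.91 ± 0.56 for stigma and -1.34 ± 0.52 for ovary (SE, limma adjusted p = 0.0124 and 0.0457), and the ovary call was lost in 15 of 24 alternative analyses and the stigma call in 4 of 24. BZIP53, a bZIP factor of the group activated downstream of SnRK1, had 2811.2 in seedling 4, against 1425.7, 1209.2 and 1256.7 in seedlings 3, 2 and 1, a 2.16-fold difference from the mean.

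The 2 tested sugar-induced genes ran the other way in seedlings, with seedling 4 below seedling 3 and seedling 3 below both others for 2 of 2, an order that 24.6% of all tested probe sets had. DFR, the dihydroflavonol reductase of anthocyanin synthesis, had 139.7 in seedling 4, against 298.7, 581.1 and 598.0 in seedlings 3, 2 and 1, 3.11-fold under their mean. It was lower in stigma than in ovary by a log2 difference of -2.55 ± 0.37 and higher in ovary than in seedling by 2.61 ± 0.34 (SE, limma adjusted p = 0.000158 and 3.43e-05). APL3, a large subunit of the starch enzyme ADP-glucose pyrophosphorylase, had 42.4 in seedling 4, against 74.2, 94.2 and 88.6 in seedlings 3, 2 and 1, and was not counted. All of these seedling signals lay under the filter signal of 144.2, so the order of APL3 among seedlings is one of dim values. APL3 was higher in both pistil parts than in seedling, by log2 differences of 2.11 ± 0.22 for stigma and 1.71 ± 0.20 for ovary (SE). These are a description without a test, because APL3 passed the filter only through its pistil arrays. The clock gene GI, whose level follows the hour of harvest, had 693.8 in seedling 4, against 799.9, 434.1 and 467.2 in seedlings 3, 2 and 1. GI was higher in stigma than in seedling by 1.45 ± 0.20 and in ovary by 1.09 ± 0.19 on the log2 scale (SE, limma adjusted p = 5.2e-05 and 0.000323), and the ovary call was lost in 4 of 24 alternative analyses.

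**Figure D4:**
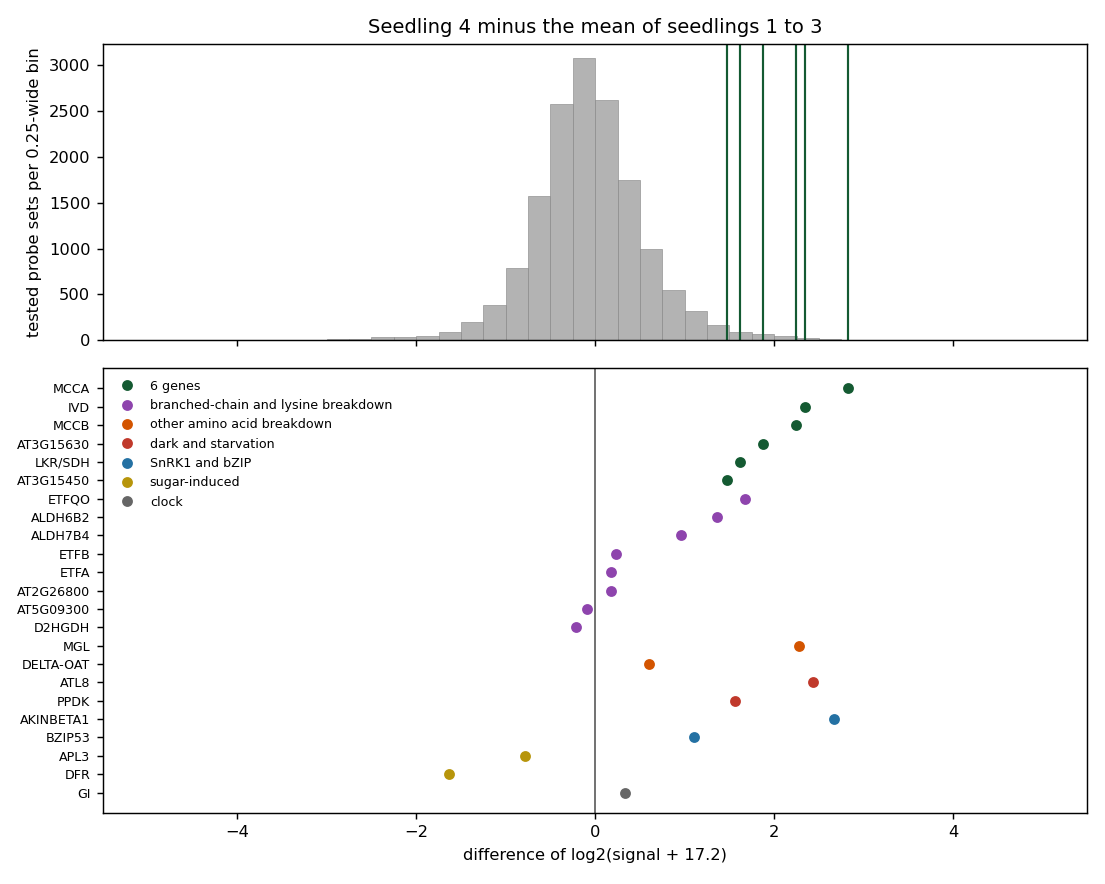
Upper panel: number of tested probe sets by the difference of seedling 4 from the mean of seedlings 1 to 3, in log2(signal + 17.2), with a green line for each of the 6 genes. Lower panel: the same difference for each of the 6 genes and each tested gene of the fixed lists; values run from 2.82 for MCCA to -1.64 for DFR.

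Within the 15 pairs of the 6 genes, the Pearson correlation of log2 values over 11 arrays ranged from 0.784 for MCCB and AT3G15450 to 0.979 for MCCA and IVD, with a median of 0.912. These values rest in part on seedling 4: over the other 10 arrays they ranged from 0.515 to 0.922, with a median of 0.737. Over the 7 pistil arrays alone, the pair of LKR/SDH and AT3G15450 had 0.912 and that of AT3G15450 and AT3G15630 0.803, whereas MCCB with AT3G15630 had -0.114. The correlations share arrays and scaling and are given as a description.

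The 8 genes whose profile over the 11 arrays was most like the mean of the 6 genes were AKINBETA1, AT4G01330, AT5G16110, AT1G33055, AT3G60320, AT3G52060, ATG8E and AT5G32450, with Pearson correlations from 0.991 for AKINBETA1 to 0.967 for AT5G32450. Over the 10 arrays without seedling 4 these were 0.967 for AKINBETA1, 0.960 for AT4G01330, 0.945 for ATG8E and 0.944 for AT1G33055, and 0.873 to 0.927 for the other 4. ATG8E, a member of the ATG8 family that coats autophagosomes, had 4256.0 in seedling 4, against 1816.6, 747.7 and 840.6 in seedlings 3, 2 and 1. It averaged 373 ± 58.2 in stigma (SD, n = 3) and 518 ± 166 in ovary (SD, n = 4). AT4G01330 had 3102.7 in seedling 4, against 1226.5, 501.5 and 673.4 in seedlings 3, 2 and 1. AT1G33055 was dim in stigma, at 36.2 ± 6.72 (SD, n = 3), and had 954.2 in seedling 4, against 287.9, 84.5 and 98.7 in seedlings 3, 2 and 1.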

How the data were processed

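Expression values are linear intensity values deposited by the authors, 1 per probe set and array. Their 2% trimmed mean was 500.03 to 500.04 on all 11 arrays, read from the values; no source used here names the software. The deposited run information (another kind of unit, other) gave only chip lot and scan period. After 64 control probe sets were left out, log2(signal + 17.2, the 10th percentile) was fitted by limma 3.58.1 (R 4.3.3) as 1 mean per tissue, with a variance trend, 8 residual and 5.19 prior degrees of freedom and Benjamini-Hochberg adjustment over 15524 probe sets above 144.2, the 40th percentile. The fit was checked on simulated data. For arrays, their number limits the precision.

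Names came from the supplied annotation, which gave 1 gene for 13513 probe sets, several for 503 and none for 8730; symbols were updated through the RefSeq table, whose gene order on the chromosomes also gave the numbers of genes between members; no sequence was used. Of each list, up to 3 called or counted genes per comparison with the largest difference were named, or the 1 largest by value where none was, with the 8 genes most like the members and every marker. ETFA, ETFB and DELTA-OAT in seedling 4, AT2G26800, and ATL8 between stigma and ovary were added after their values were seen. The members and lists were chosen with earlier results of these data known. Replicate numbers come from the titles: same-numbered arrays of different tissues had deviations correlated at -0.079 to 0.257 over 10 pairs, so they were not treated as paired.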

Additional observations from a re-analysis of the deposited data

Results flagged for a closer look

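Groups of 4 arrays were screened on the linear signal for 1 array set apart from the others. In 9 of 46 groups its gap to the nearest other exceeded Dixon's 95% critical share of the group's range. The groups share arrays, and they include seedling groups of genes that were selected on their seedling signals. A chance rate of about 1 in 20 groups therefore does not apply, and nothing is read from the count. Of the 9 flagged arrays, 8 were seedling 4, which was chosen for its values. They were MCCA with 5562.4 in seedling 4, against 1103.4 in the next seedling, IVD with 2710.9 against 764.3, LKR/SDH with 1907.3 against 768.2 and AT3G15630 with 7488.4 against 2715.9. Of the list genes, ALDH6B2 had 6230.2 in seedling 4, against 2832.4 in the next seedling, ETFQO 1648.2 against 557.5, AKINBETA1 6740.1 against 1781.9 and BZIP53 2811.2 against 1425.7. MCCB and AT3G15450 did not pass. On the log2 scale only ETFQO of these 9 passed. The remaining case was MGL in ovary 2, with 780.8 against 606.4 in the next ovary. The cause was not tested.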

How the results depend on the processing

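The direction of seedling 4 over seedlings 1 to 3 was the same for all 6 genes in the 8 alternatives run, and 5 to 6 of them were counted. Against seedling 3 alone, 441 probe sets were higher in place of 756. The number counted as higher ranged from 658 to 1018 and as lower from 743 to 1102 when a seedling was left out. With no fold threshold, 5381 probe sets were called between stigma and ovary in place of 2450, 7644 between stigma and seedling in place of 4053, and 8050 between ovary and seedling in place of 3537. Leaving out 1 array gave 2214 to 2495, 3851 to 4042 and 3388 to 3624 for these comparisons. The count of the 6 genes called between stigma and ovary ranged from 0 to 1 when an array was left out, and was 0 without stigma replicate 2 and within scan period A. AT3G15450 was called in 21 of 23 alternatives, with limma adjusted p from 0.000117 to 0.0664.

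Small stigma minus ovary differences turned sign: MCCA was 0.0078 and MCCB 0.063 with equal array medians, MCCB ranged from -0.32 to 0.10 when an array was left out, the highest without stigma replicate 3, and was 0.27 within scan period A. With RNA quality as a covariate, stigma minus ovary was -0.50 for MCCA, -0.87 for MCCB and -0.62 for IVD, and stigma minus seedling was -2.36 for MCCB in place of -1.29. The GAPDH ratio in that covariate did not overlap between stigma and seedling. With replicate number as a block, MCCA was 0.24, MCCB 0.16 and IVD 0.10. That replicate block left AT3G15450 called (-1.08, limma adjusted p = 0.00936) and gave 2514, 4039 and 3552 calls; the numbers are no pairing known from the labels, and the cause was not tested. For ATL8, stigma minus seedling was 0.30 with chip lot as a block, 0.22 without seedlings 3 and 4 and 0.74 within chip lot 1. The within-period and within-lot fits and the joint removal of seedlings 3 and 4 were chosen after seeing the data. The limits are the number of arrays, 1 seedling that decides most values, and confounding of seedlings 3 and 4 with lot and period. Further limits are that pistil and seedling arrays shared no scan period, and lists of which 20 of 87 genes have a named probe set.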

Other observations

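Genes of flavonoid and anthocyanin synthesis were added as a list after DFR had been seen, so they are described without a test. Of 19 such genes, 8 were tested, and 7 of these 8 were counted as lower in seedling 4, beside 5.31% of all tested probe sets. All 8 had the order of seedling 4 below seedling 3 below seedlings 1 and 2, beside 24.6% of all tested probe sets. Both counts include DFR, the gene that prompted the list, and nothing is read from them. 5MAT, which was not counted, had 64.8 to 117.6 in seedlings, all under the filter signal of 144.2. CHIL, a chalcone isomerase-like gene, had 21.0 in seedling 4, against 417.3, 969.5 and 686.8 in seedlings 3, 2 and 1. The flavonol rhamnosyltransferase gene UGT89C1 had 20.9 in seedling 4, against 206.9, 832.9 and 813.7 in seedlings 3, 2 and 1. UGT75C1, an anthocyanin glucosyltransferase gene, was brightest in ovary: it averaged 246 ± 135 in stigma (SD, n = 3), 2874 ± 248 in ovary and 134 ± 113 in seedling (SD, n = 4 each), with 7.9 in seedling 4. The seedling 4 signals of CHIL, UGT89C1 and UGT75C1 lay near or under 17.2, the 10th percentile of all values, and far under the filter signal of 144.2. They are thus floor values rather than measured levels.

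Autophagy genes, taken by symbols that begin with ATG or APG and a digit, were also added after ATG8E had been seen. All but ATG3 belong to the ATG8 family, so the values describe the family of ATG8E rather than autophagy genes at large. Of 10 tested, ATG8E alone was counted as higher in seedling 4, beside 4.87% of all tested probe sets. The median log2 difference of the 10 from the mean of seedlings 1 to 3 was 0.68, beside -0.09 over all tested probe sets. For 8 of 10, seedling 4 was above seedling 3 and seedling 3 above seedlings 1 and 2, beside 19.9% of all. ATG8E is the gene that prompted the list. ATG8F had 7195.0 in seedling 4, against 5184.4, 3085.1 and 2951.2 in seedlings 3, 2 and 1, and ATG8D had 493.6, against 564.6, 408.3 and 493.9.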
